A study of Mus musculus and Homo sapiens with 10 samples.

Results

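The regions described here are the changed H3K4me3 regions of human MDA-MB-231-Luc cells that lie in 6 windows of chromosome 19 rich in zinc finger genes. They were taken by position, as the listed regions that overlap 11.5 to 12.8 Mb, 19.7 to 24.5 Mb, 36.5 to 38.5 Mb, 44.3 to 45 Mb, 52.3 to 54 Mb or 56 to 59 Mb of the human build hg19. This gave 26 regions of the 149 listed on chromosome 19 and of the 3852 listed on all chromosomes. The windows themselves were chosen with earlier results of these data known. MDA-MB-231 is a widely used line from human breast cancer. Cells of the first of 2 libraries had been given a short hairpin against CBX8 by lentivirus (shCBX8, labelled CBX8 knockdown), and those of the other a scrambled hairpin (shScr, labelled wild type). Both were immunoprecipitated with the same anti-H3K4me3 antibody. Per the labels' protocols, infected cells were put under puromycin at 2 µg/ml after 2 days and kept there for at least 4 days, and chromatin was cut with micrococcal nuclease and sequenced as single-end reads of 100 bp. Controls and knockdown cells thus share infection and drug selection. The lists hold only the position of each region that was called lower or higher in the knockdown library, with no read count, fold or p-value, so neither the depth nor how large a change was is known. With 1 library per condition there is no replicate check and no test between conditions, and the level of CBX8 itself was not analysed here.

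Zinc finger genes of the KRAB type code for DNA-binding repressors. An array of C2H2 zinc fingers reads the DNA sequence, and the KRAB domain recruits the co-repressor TRIM28, which in turn brings in SETDB1, the enzyme that lays down H3K9me3. Many of these proteins silence transposable elements. Their genes arose by tandem duplication and stand in rows on chromosome 19, including a row on the short arm next to the centromere, where the second window lies. H3K4me3 marks active promoters, and CBX8 is a chromodomain subunit of PRC1, a Polycomb complex. No hg19 gene annotation was used here, so regions are given by position, and which gene each one lies in was not analysed. That the windows are rich in zinc finger genes was taken as given and was not checked against the lists.

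After CBX8 knockdown, 13 of the 26 H3K4me3 regions in the zinc finger windows were called lower and 13 higher, a lower share of 50.0% (exact Clopper-Pearson 95% interval 29.9 to 70.1%). The even split depended on where the borders were drawn: with each window narrowed by 250000 bp on each side, 15 regions remained and 33.3% of them were lower. Over all chromosomes, 32.2% of listed regions were called lower and 67.8% higher. In the rest of chromosome 19, 72 of 123 regions were lower, or 58.5% (49.3 to 67.3%), and 51 were higher, or 41.5%. The windows differed from the rest of their chromosome by -8.54 percentage points in the lower share, by -26.4 points with the narrowed windows and by -3.99 points without the second window. The windows' own interval holds the share of the rest, so a difference between the windows and the rest of chromosome 19 was not detectable with 26 regions. Against the other chromosomes, where 1156 of 3703 regions were lower (31.2%, 29.7 to 32.7%), the windows differed by 18.8 points. The lower limit of the windows' interval lies below that share too. These intervals cover counting error over regions and take regions as independent, which neighbours are not.

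Taken at their full 13.5 Mb, the windows equal 22.9% of chromosome 19 as measured to the last listed region. That region ends 106 kb before the sixth window does, so the share is slightly overstated and the span of the rest slightly understated. The windows held 17.4% of the listed regions of the chromosome. They held 15.3% of its lower and 20.3% of its higher regions. The windows had 1.93 listed regions per Mb and the rest of the chromosome 2.71 per Mb. Lower regions numbered 0.963 per Mb in the windows and 1.59 per Mb outside, and higher regions 0.963 and 1.12 per Mb. The span of the rest includes the centromere, which is largely unassembled in hg19, and promoters were not counted in either part. In the 20 regions within 500 kb outside a window, 13 were lower, or 65.0% (40.8 to 84.6%), and beyond that distance 59 of 103 were, or 57.3% (47.2 to 67.0%). The windows, their flanks and the remainder of the chromosome had overlapping intervals, all of them above or across the 32.2% of the whole list.

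**Figure D1:**
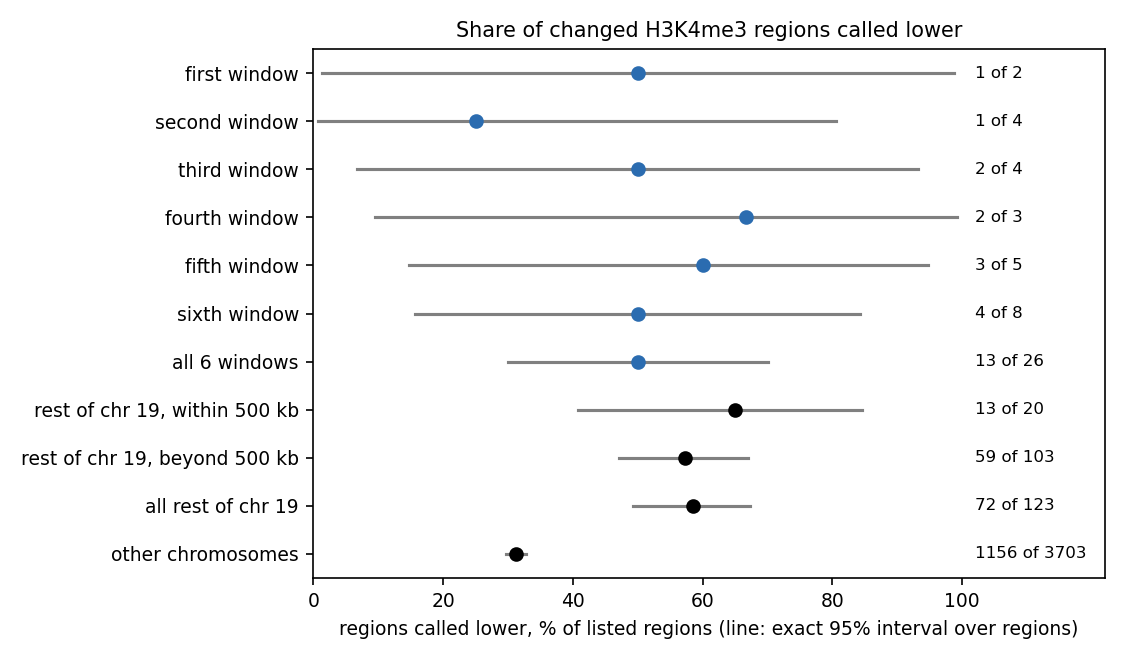
The share of listed H3K4me3 regions called lower after CBX8 knockdown is plotted in percent for each of the 6 windows, for all windows, for the rest of chromosome 19 and for the other chromosomes. Points are shares, lines are exact 95% intervals over regions, and the counts stand at the right; the 6 windows run from 25.0% to 66.7% with wide intervals, and the windows together (50.0%) and the rest of chromosome 19 (58.5%) overlap.

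Along the chromosome, the 26 regions formed 13 stretches of one direction, 6 of them of a single region, with 7 changes of direction inside windows, 2 of them in the third window and 1 in each of the other 5. Of the 20 pairs of neighbouring regions inside a window, 13 had the same direction, or 65.0%. In the rest of chromosome 19 it was 72 of 117 pairs, or 61.5%. By this count of pairs, sharing a direction with the neighbour was about as frequent inside the windows as outside them. The nearest listed region had the same direction for 20 of 26 regions in the windows (76.9%) and for 77 of 123 outside (62.6%). Neither difference was tested.

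The sixth window, nearest the end of the long arm, held the most regions, 4 higher and 4 lower, and they lay in opposite parts of it. All 4 higher regions fell within 260 kb. They were chr19:56060851-56062200 (1.35 kb), chr19:56269501-56272600 (3.1 kb), chr19:56278901-56282850 (3.95 kb) and chr19:56319201-56320850 (1.65 kb). The middle pair of these stood 6.3 kb apart, the smallest gap between any of the 26 regions and its neighbour. After a stretch of 2.04 Mb with no listed region came the 4 lower regions, within 533 kb. They were chr19:58360601-58362800 (2.2 kb), chr19:58816051-58818500 (2.45 kb), chr19:58836301-58841400 (5.1 kb) and chr19:58890201-58893900 (3.7 kb). The last 3 of them lay with gaps of 17.8 and 48.8 kb, and the last is also the last listed region of chromosome 19.

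The fifth window had the same kind of division with the order turned round. Its 3 lower regions came first, chr19:52429201-52433350 (4.15 kb), chr19:52530151-52532900 (2.75 kb) and chr19:52596551-52599800 (3.25 kb), all within 171 kb. A stretch of 894 kb without a listed region followed. Then came the 2 higher regions, chr19:53493951-53499300 (5.35 kb) and chr19:53684901-53687600 (2.7 kb), 186 kb apart. The first of these was the longest higher region of the windows. Of the higher regions, 5.06% on all chromosomes and 3.92% in the rest of chromosome 19 were as long or longer. This was the only window in which the median higher region was longer than the median lower one, at 4025 and 3250 bp, with 2 and 3 regions.

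The fourth window, the shortest at 0.7 Mb, had the highest density, with 4.29 regions per Mb from 3 regions. A higher region, chr19:44331251-44332900 (1.65 kb), was followed by 2 lower regions 15.4 kb apart, chr19:44597651-44600900 (3.25 kb) and chr19:44616301-44619950 (3.65 kb). The third window held 4 regions in the order higher, lower, lower, higher. They were chr19:36907851-36910900 (3.05 kb), chr19:37261251-37264600 (3.35 kb), chr19:38396251-38400350 (4.1 kb) and chr19:38422451-38424300 (1.85 kb). Its last 2 regions, 1 lower and 1 higher, were 22.1 kb apart, the closest pair of opposite direction in any window.

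The second window, on the short arm beside the centromere, was the longest and the sparsest. It held 4 regions in 4.8 Mb, or 0.833 per Mb, against 2.71 per Mb in the rest of the chromosome. Its 1 lower region, chr19:19753151-19755000, was the shortest lower region of the windows at 1.85 kb and stood 53.2 kb inside the border away from the centromere. The 3 higher regions further in were chr19:20794651-20796900 (2.25 kb), chr19:21525401-21526600 (1.2 kb, the shortest of all 26) and chr19:21786901-21788200 (1.3 kb). The last 2.71 Mb of the window held no listed region, and no region was listed from there to 31.2 Mb, a stretch of 9.36 Mb that includes the centromere. A place without a listed region is one where no change passed the authors' threshold, which does not show that H3K4me3 there was the same in both libraries.

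The first window held 2 regions, 410 kb apart. The lower one, chr19:11543051-11549200, was the longest region of the windows at 6.15 kb. In the rest of chromosome 19, 12.5% of the lower regions were as long or longer, and on all chromosomes 23.8% were. The higher one, chr19:11959251-11960850, was 1.6 kb long, and the remaining 0.839 Mb of the window held none.

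**Figure D2:**
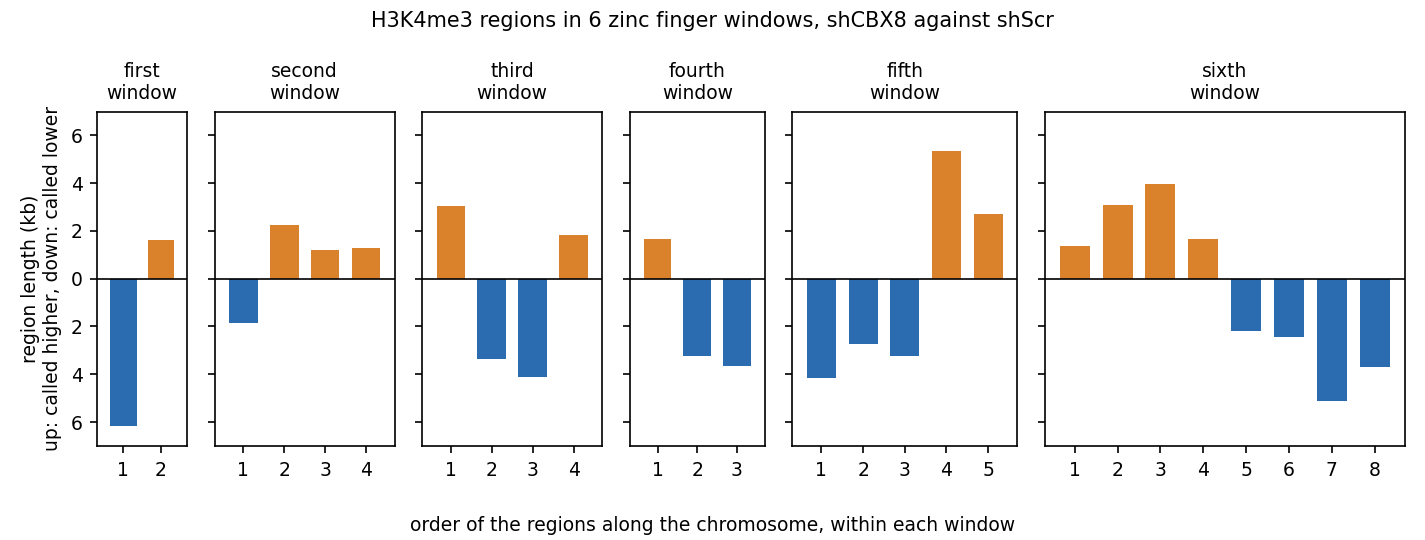
Each bar is 1 of the 26 listed regions, in their order along chromosome 19 within each window, and its height is the length in kb, drawn upward for regions called higher and downward for regions called lower after CBX8 knockdown. The sixth window has 4 higher then 4 lower regions and the fifth 3 lower then 2 higher, while 6 of the 13 stretches of one direction hold a single region.

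Regions called lower had a longer median length than regions called higher, in the windows together as elsewhere, though not in the fifth window. The 13 lower regions had a median length of 3350 bp (quartiles 2750 and 4100 bp, range 1850 to 6150 bp). The 13 higher regions had a median of 1850 bp (quartiles 1600 and 3050 bp, range 1200 to 5350 bp), so the ranges overlapped. The medians differed by 1500 bp, a ratio of 1.81. The difference was 775 bp with the windows narrowed by 250000 bp on each side (3250 against 2475 bp), and 575 bp among regions of 2500 bp or more. In the rest of chromosome 19 the medians were 3750 bp for lower and 1850 bp for higher regions, a difference of 1900 bp and a ratio of 2.03. On the other chromosomes they were 4500 and 1750 bp, a difference of 2750 bp and a ratio of 2.57. Higher regions thus had nearly the same median length in all 3 places, while the median lower region was 3350 bp in the windows, 3750 bp in the rest of chromosome 19 and 4500 bp on the other chromosomes. The quartile ranges of the lower regions overlapped between all 3. Regions on either side were not replicates, and no test was made of these lengths.

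The windows lacked the longest regions of either direction. Their longest lower region, 6150 bp, compares with 9250 bp in the rest of chromosome 19 and 21650 bp elsewhere, and their longest higher region, 5350 bp, with 6250 and 20100 bp. A maximum depends on the number of regions, and the windows held 26. At the short end, 0 of the 13 higher regions of the windows were under 1000 bp, against 5 of 51 in the rest of the chromosome and 401 of 2547 on the other chromosomes. With 13 regions the windows' count is small, and the difference was not tested. No listed lower region in any of these sets was under 1000 bp. In base pairs, lower regions covered 46.0 kb of the windows and higher regions 31.0 kb, so 59.7% of the changed base pairs were lower, against 71.7% in the rest of chromosome 19 and 50.4% on the other chromosomes.

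**Figure D3:**
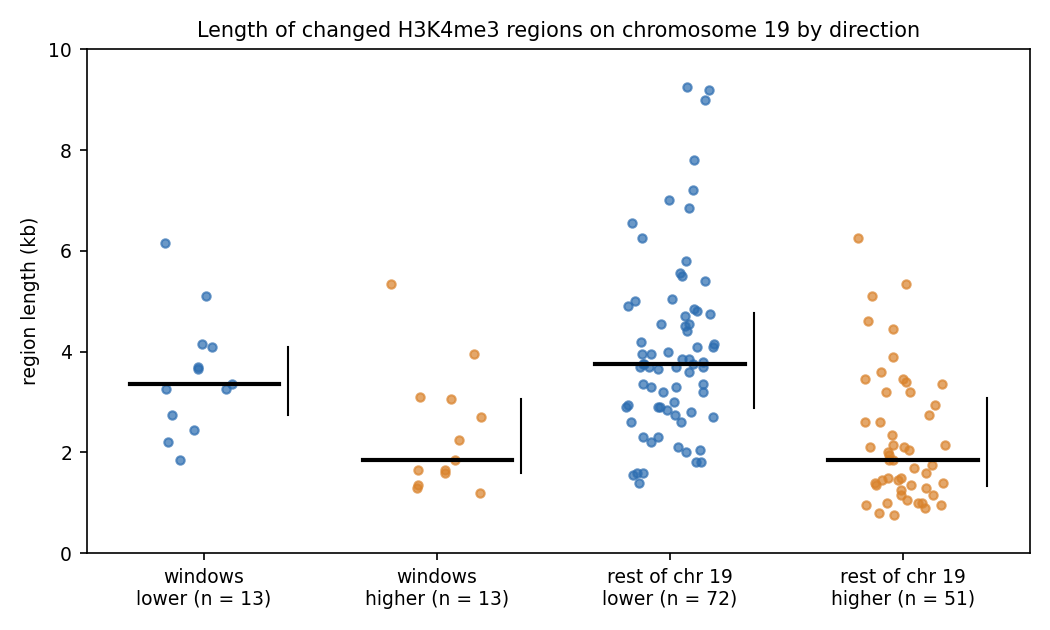
Each point is the length in kb of 1 listed region on chromosome 19, by direction and by place in or outside the 6 windows; thick lines are medians and thin vertical lines join the quartiles. Lower regions have the higher median in both places (3350 against 1850 bp in the windows, 3750 against 1850 bp outside), and the ranges overlap.

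Because direction went with length in both lists, the balance was also read within classes of length. Of the windows' regions under 2000 bp, 1 of 8 was lower (12.5%), and of those from 2000 to 2999 bp 3 of 5 were (60.0%). From 3000 to 3999 bp it was 5 of 8 (62.5%), and at 4000 bp or more 4 of 5 (80.0%). The rest of chromosome 19 gave 18.2% of 33, 59.3% of 27, 72.4% of 29 and 85.3% of 34 in the same classes. Lower shares rose with length in both parts of the chromosome, and in each class the windows' wide interval held the share of the rest. Weighted to these length classes of the windows' regions, the rest of chromosome 19 would be 55.7% lower, against the 50.0% observed in the windows. The same weighting of the other chromosomes gave 33.5%, and this value lies inside the windows' interval of 29.9 to 70.1%. Lengths within a class were not matched: the longest class reached 6150 bp in the windows, 9250 bp in the rest and 21650 bp on the other chromosomes.

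On the other chromosomes the classes held 1.82%, 22.0%, 49.2% and 70.5% lower regions, from short to long. For chromosome 19 as a whole, windows included, they held 17.1% of 41 (7.15 to 32.1%), 59.4% of 32 (40.6 to 76.3%), 70.3% of 37 (53.0 to 84.1%) and 84.6% of 39 (69.5 to 94.1%). In the 3 shorter classes the interval for chromosome 19 lay above the share of the other chromosomes, and in the longest it held that share. In the windows alone, the intervals were 0.32 to 52.7%, 14.7 to 94.7%, 24.5 to 91.5% and 28.4 to 99.5%. Each held the share of the other chromosomes, so a difference from them was not detectable in any class with 5 to 8 regions. Chromosome 19 was known to have a high share of lower regions when the windows were proposed, so this contrast describes the chromosome and gives no separate support to the windows. A difference in the copies of chromosome 19 between the 2 libraries was not tested.

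**Figure D4:**
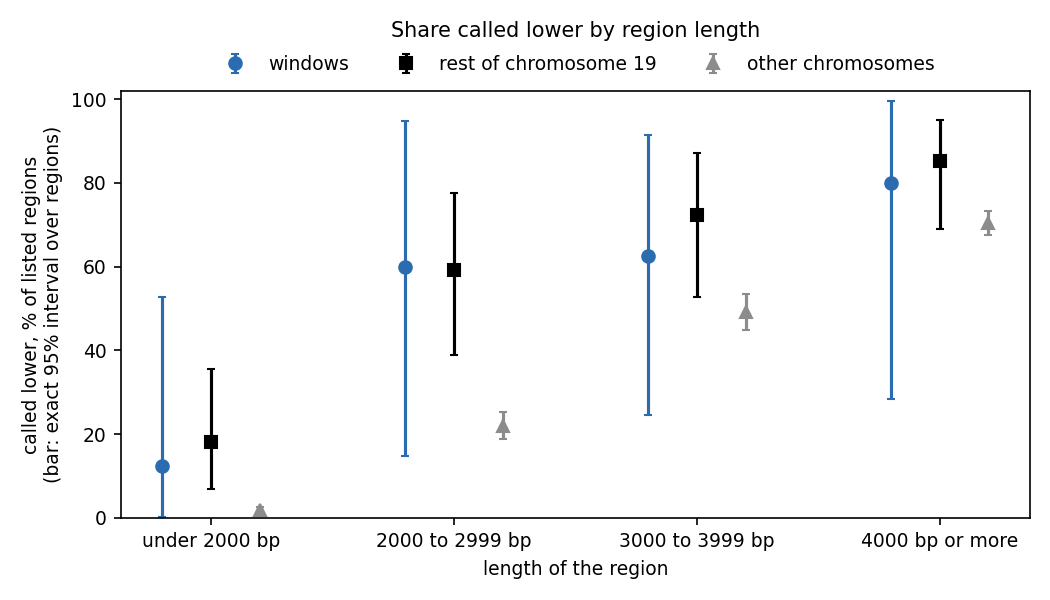
The share of listed regions called lower, in percent, is plotted in 4 classes of region length for the 6 windows, the rest of chromosome 19 and the other chromosomes, with exact 95% intervals over regions as bars. The share rises with length in each set, from 12.5% to 80.0% in the windows, and the windows' intervals hold the share of the rest of chromosome 19 in every class.

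A listed neighbour within 100 kb was about as frequent in the windows, for 15 of 26 regions (57.7%), as in the rest of chromosome 19, for 67 of 123 (54.5%). For the lower regions of the windows the median distance to the nearest listed region was 48.8 kb (quartiles 17.8 and 96.8 kb), and 10 of 13 had such a neighbour. For the higher regions of the windows the median was 186 kb (36.4 to 260 kb), and 5 of 13 had one. In the rest of chromosome 19 the order of the medians was the opposite, with 95.8 kb for lower (37.7 to 223 kb) and 61.0 kb for higher regions (29.6 to 165 kb), and 38 of 72 lower and 29 of 51 higher regions had a neighbour within 100 kb. The nearest listed region had the same direction for 11 of 13 lower and 9 of 13 higher regions of the windows. Outside it did for 48 of 72 lower and 29 of 51 higher regions. The quartile ranges overlapped in each of these pairs of sets, pairs of neighbours enter them more than once, and the differences were not tested.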

How the data were processed

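The data were lists of changed H3K4me3 regions from 2 libraries of MDA-MB-231-Luc cells, 1 shCBX8 and 1 shScr. The authors deposited 2 lists with 3 columns, chromosome, start and end. Per the names of the deposited lists they were called at a q-value of 0.002. The tools SICER, MACS2 (2.1.0), Bowtie (1.0.0) and FastQC (0.10.0) and the human build hg19 are named per the submitters' processing notes. Which tool called the regions and how depth was scaled are not given in the sources used here. All starts and ends fit a grid of 50 bp, with 0 exceptions, and 0 regions overlapped. Starts were read as counted from 0 with the end included, and are printed counted from 1.

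Regions were assigned to a window by any overlap. Shares have exact Clopper-Pearson 95% intervals. No test was made, since each condition had 1 library. Named regions were to be the longest of each window and direction, the 5 longest and the shortest of each direction, and close pairs of opposite direction; with 26 regions, all are printed, the others having been chosen after their values were seen. The members, windows and alternatives were chosen with earlier results of these data known. The gene and sequence tables at hand were for mouse, so no gene or sequence is given. Code was tested on simulated regions. Values were computed in Python 3.11.15 with pandas 2.3.3, scipy 1.17.1 and numpy 2.4.6, and drawn with matplotlib 3.10.9.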

Additional observations from a re-analysis of the deposited data

How the results depend on the processing

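Over 6 results (3 shares or differences of shares and 3 lengths), 77 of 83 alternative values had the direction reported and lay inside a set range. The range was the exact interval of a share, the combined intervals of a difference in shares, or the quartile range of a length. For the difference in median length the quartile ranges were combined, giving 509 to 2490 bp. Quartile ranges show the spread of regions and not the uncertainty of a median, so differences of 775 and 575 bp counted as inside. Many of the 77 could not have moved, since no region crossed a window border and 0 were under 1000 bp in the windows. Merging within 5000 bp could not change the windows either, as their smallest gap was 6.3 kb. The combined intervals of the difference in lower share ran from -30.5 to 13.6 points, wide enough to hold the -26.4 points of the narrowed windows. With regions under the median length of both lists (2500 bp) left out, the lower share of the rest of chromosome 19 was 77.9% and the median higher region of the windows 3100 bp, by construction longer, and lower and higher regions of the windows differed by 575 bp. By base pairs covered, the lower share of the rest was 71.7%. Merging regions of 1 list within 100000 bp gave a median lower region of 13200 bp and a difference from higher regions of 10950 bp, because merged regions include the gaps. With all other chromosomes as comparator the difference in lower share turned from -8.54 to 18.8 points. Its size also moved with the borders: windows narrowed by 250000 bp on each side left 15 regions, 33.3% of them lower, a difference of -26.4 points and a gap in median length of 775 bp, and windows widened as much gave 53.1% and -5.0 points (32 regions). Leaving out 1 window at a time gave lower shares from 47.6% to 54.5% and differences from -10.9 to -3.99 points, the last without the second window. Weighting the rest to the windows' length classes gave -5.67 points. The number of regions, 26, limits the precision, and depth is unknown. The planned count of zinc finger genes at regions was not run, since no hg19 gene starts were used here. No paired analysis was possible because each condition has 1 library and no result comes from a test.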
